A study of Mus musculus with 4 samples.

Results

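Pair 2 was compared with pair 1 in the J558 line, malignant plasma cells of a BALB/c (H-2Ld) mouse plasmacytoma. The comparison took in all 4 arrays of the series, 2 transfected clones against 2. Each pair held a control clone and a clone in which activation-induced cytidine deaminase (AID) had been targeted. The control clones carried the empty silencing vector and the AID-silenced clones the same vector with an AID-targeting insert. Every clone also carried a neomycin resistance vector and had been selected with G418. Each was grown from a single selected transfectant and measured once, on an Affymetrix Mouse 430 2.0 array. Silencing status was a term of the fit (a block), except where an alternative without it is named, so that a pair difference is one seen beside the effect of AID silencing. What the members of a pair share, in derivation, RNA extraction or hybridisation, is not stated. A difference between the pairs therefore cannot be told apart from a difference in handling, and with 1 array per clone the p-values reach no further than these clones. For each probe set the error is how far the pair difference in the control clones is from that in the AID-silenced clones. Most of the error estimate comes from a prior shared over all probe sets.

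Plasma cells are built for secretion. Their endoplasmic reticulum (ER) is expanded under the control of the unfolded protein response, in which the sensors IRE1, ATF6 and PERK detect unfolded protein and raise chaperones, folding enzymes and degradation factors. PERK and the amino acid sensor GCN2 act through the transcription factor ATF4, which raises amino acid transporters, synthetases and stress regulators such as CHOP (Ddit3). Proteasomes dispose of misfolded chains and also supply peptides to MHC class I molecules, and growing cells take up iron through the transferrin receptor.

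The arrays were on one scale, with median signals between 52.7 and 54.9 and 75th percentiles between 398.9 and 447.9. A signal is the MAS5 summary of a probe set in arbitrary units. Differences are in log2(signal + 16), pair 2 minus pair 1, and understate the fold of dim genes. The clones carried the plasma cell profile of the line. All 8 plasma cell markers, among them Sdc1, Prdm1, Irf4, Xbp1 and Igha, were brighter in every clone than any of 15 bacterial control probe sets, whose highest signals were 27.2 to 41.9. Their summed signals were 133725 and 145705 in the control and AID-silenced clones of pair 1 and 170803 and 173093 in those of pair 2. Markers of other cells were fewer and dimmer: every clone was above the bacterial controls for 3 of 5 mature B cell, 1 of 5 T cell, 1 of 3 NK cell, 3 of 7 myeloid, 0 of 2 erythroid and 2 of 6 fibroblast and endothelial markers. The summed signals of these lists ran from 14.6 (erythroid) to 1737.3 (myeloid), and the brightest of their members was Cd68, at 571.7 to 866.1. The myeloid marker Mpo had 62.2 and 145.3 in the control and AID-silenced clones of pair 1 and 653.2 and 261.2 in those of pair 2 (log2 1.94 ± 0.59, limma adjusted p = 0.250). In a longer list of myeloid genes, 3 of 7 tested were higher in pair 2 in both statuses and 1 lower. Cd3d, Cd4, Itgam, S100a8 and Pdgfrb lay below the bacterial controls in every clone. Their part in the differences was not tested. In bulk RNA, fewer cells of a type and less RNA per cell cannot be told apart.

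The pairs differed at many genes by a moderate amount and at few by enough to pass a test with 4 arrays. Of 22518 probe sets bright enough to test, 3 were called higher in pair 2 (0.0133%) and 1 lower (0.00444%) at a limma adjusted p under 0.05, and 3558 (15.8%) had an unadjusted p under 0.05, 1390 higher and 2168 lower. At least a 2-fold difference in both statuses was seen at 69 probe sets higher in pair 2 (0.306%) and 308 lower (1.37%), whereas 82 (0.364%) differed 2-fold in opposite directions. Counted as genes by the brightest probe set, these were 28 higher (0.267%), 165 lower (1.58%) and 45 opposite of 10474. By sign alone, 26.4% of the tested genes were higher in pair 2 in both statuses and 38.5% lower in both. The median gene difference was -0.06 in the control clones and -0.07 in the AID-silenced clones.

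The excess of lower genes depended in part on how the arrays were scaled. As deposited, the brightest of 4 equal classes of probe sets had median differences of 0.08 (control) and 0.07 (AID-silenced), and the class next below it -0.11 and -0.10. Quantile normalisation, which removed this tilt, gave 103 probe sets 2-fold higher and 227 lower in both statuses, that is 31.2% higher against 18.3% as deposited. Testing all probe sets with no filter on low signal gave 260 and 565, or 31.5% higher. The share went the other way with a stricter filter (14.0% higher) and with a pseudocount of 64 (12.6%).

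The gene that differed most firmly was Tfrc, the transferrin receptor, which imports iron-loaded transferrin and whose mRNA is stabilised when cells are short of iron. All 3 of its tested probe sets rose in pair 2, and they were the 3 called higher. The first stood at signals of 5172 and 3991.4 in pair 1 (here and below the control clone is given first) and at 19289.9 and 14708.3 in pair 2, a 3.70-fold difference (log2 1.89 ± 0.13, SE, n = 2 clones per pair, limma adjusted p = 0.0209). At the second they were 1209.2 and 701.2 against 5506.7 and 3566.9, or 4.75-fold (log2 2.25 ± 0.18, limma adjusted p = 0.0340). The third gave 4733.3 and 3085.4 against 19228.6 and 15804.9, or 4.55-fold (log2 2.18 ± 0.15, limma adjusted p = 0.0209). Both clones of pair 2 were above both clones of pair 1 at every probe set, and within each pair the control clone was the higher. The call needed the block: without silencing status as a term, limma adjusted p was 0.200 at the first probe set, and with the plain prior of limma it was 0.351. With 3 clones the block leaves no residual degree of freedom, so each fit that left out a clone also left out silencing status, and the part of either choice cannot be told apart. Without either pair 1 clone, or the pair 2 control clone, such a fit gave limma adjusted p = 0.592, 0.230 and 0.380 at the first probe set, while the log2 difference stayed between 1.69 and 2.08. Without the pair 2 AID-silenced clone, limma adjusted p was 0.0452 at the first probe set and above the threshold at the other two (0.0899 and 0.0779).

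No other gene of iron handling passed the test, and all those tested but Lcn2 differed less than Tfrc. Of 12 tested members of the iron list, 6 were higher in pair 2 in both statuses and 2 lower, and Tfrc was the member that passed the test. Fth1, the ferritin heavy chain that stores iron, had signals of 17011.4 and 13750.2 in pair 1 and 22791.0 and 19519.5 in pair 2 (log2 0.46 ± 0.12, limma adjusted p = 0.172). Lcn2, a secreted protein that binds bacterial siderophores, went the other way, with 77.2 and 181.6 against 3.3 and 39.2 (log2 -2.06 ± 0.40, limma adjusted p = 0.142). Its signal in the control clone of pair 2 was below the bacterial controls. Ireb2, an iron-sensing regulator of Tfrc mRNA, stood at 1306.2 and 1165.5 against 1680.4 and 1202.2 (log2 0.20 ± 0.20, limma adjusted p = 0.655).

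The probe set that fell has no gene in the annotation used here. Its signals were 1447 and 5452 in pair 1 and 177.8 and 608.5 in pair 2, an 8.13-fold difference (log2 -3.02 ± 0.20, limma adjusted p = 0.0209). In each pair the AID-silenced clone was the brighter, and the pairs did not overlap. This call too was lost without the block (limma adjusted p = 0.292) and with the plain prior (0.351). In the fits of 3 clones without the block, limma adjusted p was 0.213 to 0.604 and the log2 difference ran from -3.97 to -2.07.

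Beyond these calls, genes were ranked by the smaller of their differences in the control and the AID-silenced clones, and none of those named next passed the test. Among genes higher in pair 2, Igfbp3, a secreted binding protein for insulin-like growth factors, had signals of 622.8 and 758.8 in pair 1 and 4415.3 and 2494.1 in pair 2 (log2 2.24 ± 0.29, limma adjusted p = 0.104), and its second probe set differed by 2.17. Mx1, an interferon-induced antiviral GTPase, was dim in pair 1 at 31.5 and 39.8 and stood at 164.3 and 202.2 in pair 2 (log2 1.95 ± 0.34, limma adjusted p = 0.125). Its signal in the control clone of pair 1 was below the bacterial controls of that array. Rgcc, a regulator of the cell cycle, had 191.8 and 104.7 against 725.4 and 305.6, and the pairs did not overlap. The muscle isoform of phosphoglycerate mutase, Pgam2, was uneven, at 1282.6 and 213.8 against 14118.1 and 564.1, so that the AID-silenced clone of pair 2 lay below the control clone of pair 1. Trim44, a tripartite motif protein, was likewise uneven, at 24.7 and 39.3 against 1580.3 and 266.0, and the signal of 24.7 was below the bacterial controls of its array. For Frmpd2, Tes and Dlgap3 both pair 1 signals lay below the bacterial controls of their arrays, and no fold is given: their pair 2 signals were 151.5 and 172.5, 848.1 and 53.3, and 117.5 and 89.5. Defa3, Nav2, H2-T3, Gm13238 and Htr3b were also among the 15, with pair 1 signals from 28.1 (H2-T3) to 117.5 (Defa3).

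Genes lower in pair 2 were more numerous and several were bright. Cox6a2, the heart and muscle form of a cytochrome c oxidase subunit, had 12433.7 and 8114.8 in pair 1 and 1072.9 and 1449.1 in pair 2 (log2 -2.99 ± 0.27, limma adjusted p = 0.0729), and its second probe set differed by -3.59. Gtpbp2, a GTPase that helps to rescue stalled ribosomes, stood at 3610.9 and 3687.9 against 1069.2 and 867.5 (log2 -1.90 ± 0.19, limma adjusted p = 0.0729), and all 4 of its probe sets were lower in both statuses. C130026I21Rik came nearest to the threshold, at 6910.8 and 5421.4 against 1259.1 and 1403.5 (log2 -2.19 ± 0.19, limma adjusted p = 0.0543). It passed the threshold under quantile or cyclic loess normalisation, a pseudocount of 64 or no low-signal filter. Angptl6, a secreted angiopoietin-like protein, was at 2703.6 and 2476.0 against 626.0 and 309.9 (log2 -2.51 ± 0.26, limma adjusted p = 0.0729). In each of these the lowest pair 1 signal was more than 3 times the highest in pair 2.

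Several of the lower genes act in signalling or metabolism. Gch1, the first enzyme of tetrahydrobiopterin synthesis, had 956.3 and 1554.7 in pair 1 and 119.8 and 432.9 in pair 2 (log2 -2.32 ± 0.30, limma adjusted p = 0.0924). Gab2, a docking protein downstream of cytokine and antigen receptors, had 273.2 and 212.4 against 34.7 and 27.8, while its other probe set differed by -0.10. Arhgap12, a GTPase-activating protein, had 871.3 and 1781.8 against 106.3 and 426.7, and all 3 probe sets were lower in both statuses. Napsa, an aspartic protease, had 794.8 and 814.4 against 70.5 and 222.4. Lysmd2 differed most by the ranking, at 192.7 and 506.0 against 5.7 and 68.7, and the signal of 5.7 was below the bacterial controls of its array. Bcl2l14 was below the bacterial controls in both clones of pair 2, at 4.7 and 23.6 against 147.6 and 153.6. The remaining genes of the 15 were Gstp3, Cask, Lcn2, Arap3 and Tmem121, with pair 2 signals from 2.1 (Cask) to 86.4 (Gstp3).

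**Figure D1:**
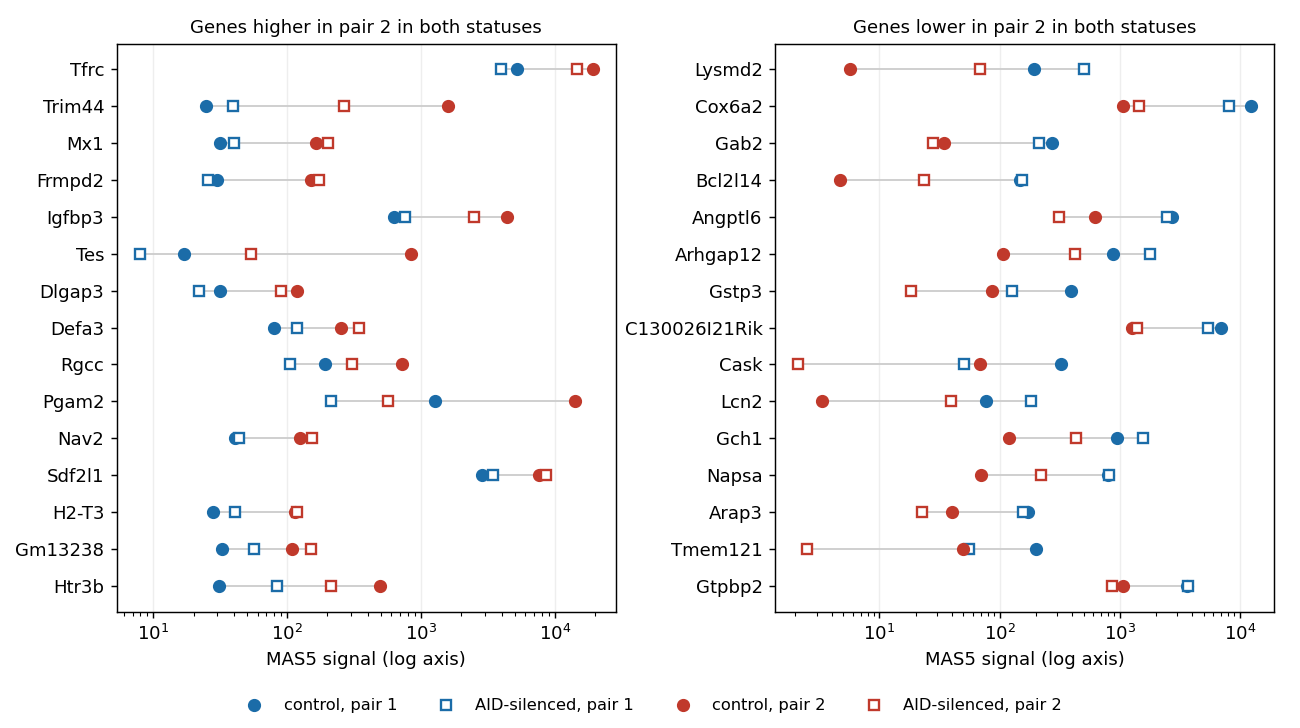
MAS5 signal (log axis) of the 15 genes ranked highest in each direction, in the control (filled circles) and AID-silenced (open squares) clones of pair 1 (blue) and pair 2 (red), 1 array per point. Tfrc lay between 3991.4 and 5172 in pair 1 and between 14708.3 and 19289.9 in pair 2, and Cox6a2 between 8114.8 and 12433.7 in pair 1 and between 1072.9 and 1449.1 in pair 2.

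The edge of the 2-fold limit held Dtx2 and Atat1 just inside on the higher side (smaller differences of 1.00 and 1.01) and Casp1 and Dusp2 just outside (0.99 each). Both AID-silenced signals of Casp1, at 2.4 and 20.5, were below the bacterial controls, so that its place at the limit rests on the pseudocount. On the lower side Tubgcp5 and Itpr2 lay just inside (-1.01 each) and Atl3 and Kcp just outside (-0.999 each).

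Pathways were read from 50 gene lists with 754 tested genes, of which Tfrc alone was called. The counts that follow are therefore of direction, members higher or lower in pair 2 in both statuses, and are to be set beside the 26.4% and 38.5% of all tested genes. By this count, with the signals as deposited, proteasome, ribosome biogenesis, ER folding, chaperone, sterol and cell division genes were mostly higher in pair 2. MHC class I, ATF4 and JAK-STAT genes were mostly lower, under the other scalings too. Members named below were mostly chosen by the size of their differences. That the pairs did not overlap in a named member follows in part from this choice. The share of all tested genes without overlap is not given.

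Proteasome subunits differed by a small amount and in nearly uniform fashion. Of 28 tested subunits of the core and the regulatory particle, 27 were higher in pair 2 in both statuses and 0 lower, with median differences of 0.37 between the control clones and 0.35 between the AID-silenced ones. Psma5, an alpha subunit of the core, had signals of 10153.5 and 9071.2 in pair 1 and 16679.0 and 13086.5 in pair 2 (log2 0.62 ± 0.13, limma adjusted p = 0.142). Psmb2, a beta subunit, had 6950.4 and 6299.4 against 10106.8 and 9237.0, and Psmd12, a subunit of the regulatory lid, 5182.0 and 5937.0 against 8304.2 and 7802.4. In these members the pairs did not overlap. Under quantile or cyclic loess normalisation 22 of 28 were higher and 3 lower, with list medians of 0.20 and 0.21 against 0.36 as deposited.

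The Myc network and its ribosome biogenesis genes gave a similar count, 23 of 26 higher and 0 lower (medians 0.29 and 0.33). Srm, spermidine synthase, had 15594.1 and 13801.1 in pair 1 and 23810.1 and 21711.1 in pair 2 (log2 0.63 ± 0.12, limma adjusted p = 0.130). Polr1b, the second largest subunit of RNA polymerase I, had 1439.5 and 1295.2 against 2212.5 and 2058.7 (log2 0.64 ± 0.18, limma adjusted p = 0.193). Nolc1 and Rrp9, which act in ribosomal RNA maturation, were higher by 0.44 and 0.66 between the control clones and by 0.52 and 0.41 between the AID-silenced ones. Myc itself, which is driven by a translocation in most mouse plasmacytomas, was bright in every clone and differed little, at 22983.6 and 22320.0 against 27251.3 and 23804.6 (log2 0.17 ± 0.11, limma adjusted p = 0.515). Quantile normalisation left 19 of 26 higher and 1 lower. The E-box CACGTG, the site that Myc binds, lay in the windows described below in 4 of 20 tested members, beside 8.09% of all genes. Such a share describes the list and not the pairs.

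**Figure D2:**
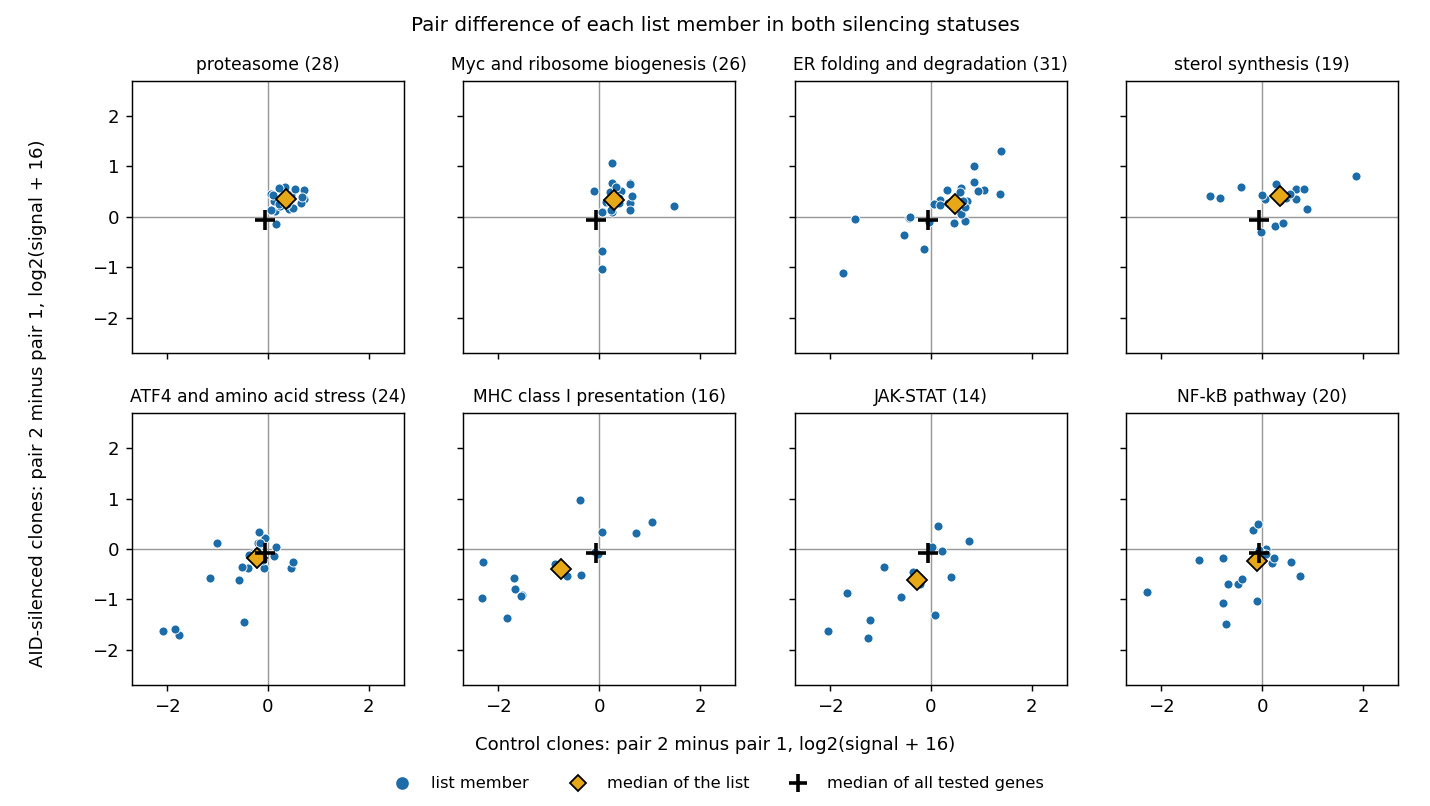
Each point is a tested member of a gene list, placed by its difference between the control clones (horizontal) and between the AID-silenced clones (vertical), pair 2 minus pair 1 in log2(signal + 16); diamonds mark list medians and crosses the median of all tested genes at -0.06 and -0.07. Proteasome members sit close together in the upper right, with a median at 0.37 and 0.35, and MHC class I members spread to the lower left, with a median at -0.76 and -0.41.

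ER folding and degradation genes were divided. Of 31 tested, 22 were higher in pair 2 in both statuses and 6 lower, with medians of 0.49 between control clones and 0.26 between AID-silenced clones. The higher members included chaperones, disulfide isomerases and translocon subunits. Sdf2l1, an ER protein that works with the chaperone BiP, had signals of 2870.3 and 3479.2 in pair 1 and 7581.1 and 8610.3 in pair 2 (log2 1.35 ± 0.15, limma adjusted p = 0.0777). It was the 1 member of the list at least 2-fold higher in both statuses. Pdia4, a disulfide isomerase, had 4833.8 and 5033.4 against 8814.7 and 10082.4 (log2 0.93 ± 0.14, limma adjusted p = 0.110), and Hyou1, a nucleotide exchange factor for BiP, 5120.2 and 5100.0 against 9245.7 and 8266.9 (log2 0.77 ± 0.14, limma adjusted p = 0.130). Sec61a1, the channel of the translocon, had 6 of 6 probe sets higher in both statuses, with 9567.4 and 9192.6 against 14509.6 and 13591.2 at the brightest. In the named members neither clone of pair 1 reached the lower clone of pair 2.

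The lower members included a sensor and parts of the degradation machinery. Ern1, which encodes IRE1, had 5491.0 and 5928.7 in pair 1 and 1629.3 and 2721.0 in pair 2 (log2 -1.43 ± 0.20, limma adjusted p = 0.104), and all 5 of its probe sets were lower in both statuses. Xbp1, whose mRNA IRE1 splices, was higher at all 4 probe sets, with 27279.0 and 33142.2 against 38028.0 and 38926.0 at the brightest (log2 0.36 ± 0.11, limma adjusted p = 0.226). Sel1l, the partner of the ubiquitin ligase Syvn1 in ER-associated degradation, differed by -0.52 between control clones and -0.37 between AID-silenced clones, whereas Syvn1 differed by 0.54 and 0.26. The array does not tell spliced from unspliced Xbp1 mRNA in these values.

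The ER stress response element, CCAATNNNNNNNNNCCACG, is the promoter site through which ATF6 acts, and it was searched for on both strands. The RefSeq promoter windows (GRCm38.p6) run from 250 bases before to 50 after the gene's start. It was present in 8 of the 25 tested ER genes with a window, beside 0.137% of 27025 genes. That share describes the list and not the pairs. Of the 8, 7 were higher in pair 2 in both statuses, beside 22 of the 31 tested members of the list. The windows of Hspa5, Creld2, Calr and Syvn1 are shown, as those of 2 chaperones, a secreted stress protein and a ubiquitin ligase, with the site in capitals and up to 30 bases on each side.
Hspa5 (chr2:34771995-34772073, + strand): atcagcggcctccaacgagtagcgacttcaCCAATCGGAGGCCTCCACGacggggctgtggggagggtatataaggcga
Creld2 (chr15:88819490-88819568, + strand): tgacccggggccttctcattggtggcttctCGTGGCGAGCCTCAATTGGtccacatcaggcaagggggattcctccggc
Calr (chr8:84847045-84847123, - strand): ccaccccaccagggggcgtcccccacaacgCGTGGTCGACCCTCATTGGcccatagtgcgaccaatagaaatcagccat
Syvn1 (chr19:6046502-6046575, + strand): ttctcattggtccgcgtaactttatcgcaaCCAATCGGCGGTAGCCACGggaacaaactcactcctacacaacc
Each is written 5′ to 3′ on the gene's strand, and in Creld2 and Calr the site lies on the opposite strand, so the capitals show its reverse complement. Hspa5, which encodes BiP, the master chaperone of the ER, had signals of 23846.1 and 25512.3 in pair 1 and 38900.4 and 30631.6 in pair 2 (log2 0.48 ± 0.14, limma adjusted p = 0.193). Creld2, a secreted ER stress protein, had 5229.0 and 7137.6 against 13615.8 and 9699.5 (log2 0.91 ± 0.24, limma adjusted p = 0.191). Calr, the lectin chaperone calreticulin, had 13668.6 and 17139.0 against 22584.3 and 21430.1 (log2 0.52 ± 0.14, limma adjusted p = 0.185), and Syvn1 3680.1 and 4195.7 against 5357.5 and 5024.3. The pairs did not overlap in any of these 4, which were chosen after their values were seen. In each the control clones differed by more than the AID-silenced clones. Hsp90b1, the remaining gene with a site that was not higher in both statuses, differed by 0.68 and -0.08. A match describes the letters in the window and not a factor at work.

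The ATF4 and amino acid stress list was lower in pair 2, with 15 of 24 tested members lower in both statuses and 1 higher (medians -0.22 and -0.18). The members furthest apart were stress regulators. Trib3, a pseudokinase induced by CHOP, had 4976.2 and 2453.9 in pair 1 and 1168.5 and 786.6 in pair 2 (log2 -1.85 ± 0.20, limma adjusted p = 0.0746), and both of its probe sets were lower. Ddit3, the transcription factor CHOP, had 2614.1 and 1745.5 against 761.3 and 523.9 (log2 -1.73 ± 0.19, limma adjusted p = 0.0799). Stc2, the secreted glycoprotein stanniocalcin 2, had 1422.2 and 1055.8 against 387.7 and 339.1 (log2 -1.71 ± 0.22, limma adjusted p = 0.0923). They were chosen by size, and are the 3 of the 24 tested members at least 2-fold lower in both statuses.

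Other members of that list differed less. Cth, which makes cysteine from cystathionine, had 16302.7 and 13216.0 against 7358.6 and 8819.2 (log2 -0.86 ± 0.17, limma adjusted p = 0.142). Asns, asparagine synthetase, had 19439.1 and 20414.5 against 18322.3 and 15681.2, and Atf4 itself 18173.1 and 15262.6 against 15471.9 and 13907.7, in which the pairs were close or overlapped. The ATF4-binding element TGATGNAA lay on either strand in 6 of the 18 tested members with a window (Asns, Chac1, Trib3, Slc7a11, Aars and Gars), beside 4.51% of all genes. As with the ER site, that share describes the list and not the pairs. Of the 6, 5 were lower in pair 2 in both statuses and 0 higher, beside 15 lower and 1 higher of the 24 tested members. Slc7a11, the cystine and glutamate exchanger, carried it upstream of its start on both strands. Its window is shown for that reason, with the copy nearer the start in capitals.
Slc7a11 (chr3:50443623-50443690, - strand): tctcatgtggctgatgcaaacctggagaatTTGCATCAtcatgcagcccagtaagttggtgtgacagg
Its signals were 1034.8 and 555.3 in pair 1 and 783.6 and 426.5 in pair 2 (log2 -0.38 ± 0.22, limma adjusted p = 0.438), so the silencing statuses were further apart than the pairs. No match was found in the windows of Ddit3 and Stc2, which says only that these letters are not in the windows.

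**Figure D3:**
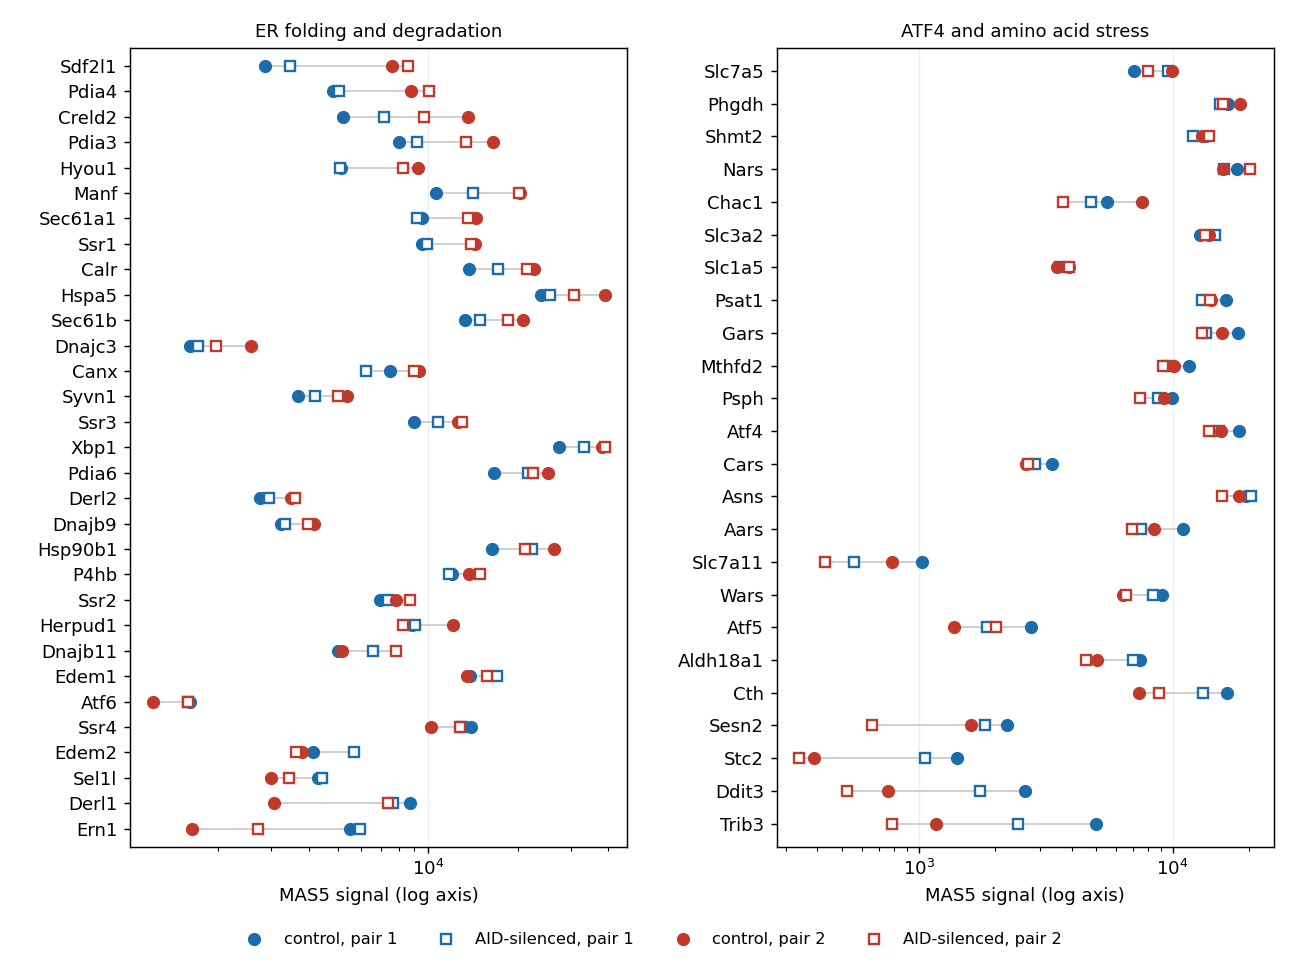
MAS5 signal (log axis) in each clone for the 31 tested ER folding and degradation genes (left) and the 24 tested ATF4 and amino acid stress genes (right), ordered by the fitted difference from highest to lowest; symbols as in the plot of ranked genes, control circles and AID-silenced squares, pair 1 blue and pair 2 red. Sdf2l1 at the top left had a difference of 1.35, and Trib3 at the bottom right of -1.85.

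MHC class I presentation genes were lower as well. Of 16 tested, 12 were lower in pair 2 in both statuses and 3 higher, with medians of -0.76 between control clones and -0.41 between AID-silenced clones. Tap1, a subunit of the transporter that carries peptides into the ER, had 741.4 and 807.5 in pair 1 and 195.7 and 302.2 in pair 2 (log2 -1.61 ± 0.25, limma adjusted p = 0.112), and its partner Tap2 had 903.9 and 768.9 against 301.4 and 399.4 (log2 -1.23 ± 0.25, limma adjusted p = 0.142). Psmb9, an interferon-inducible subunit of the immunoproteasome, had 2120.0 and 1940.1 against 410.8 and 979.8, opposite in direction to the standard subunits. The immunoproteasome subunits did not all share this: Psmb8 differed by -2.31 between control clones and -0.25 between AID-silenced clones, and Psmb10 by -0.38 and 0.98. Nlrc5, the transactivator of class I genes, had 578.4 and 851.6 against 187.5 and 438.9 (log2 -1.24 ± 0.26, limma adjusted p = 0.142).

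The heavy chains H2-K1 and H2-D1 followed in the same direction. H2-K1 had 15037.2 and 16508.0 in pair 1 and 4677.6 and 9450.9 in pair 2 (log2 -1.24 ± 0.22, limma adjusted p = 0.142), with all 4 probe sets lower in both statuses. H2-D1 had 17259.4 and 19028.3 against 5314.6 and 12672.7 (log2 -1.14 ± 0.29, limma adjusted p = 0.206), with 7 of 8 probe sets lower in both. Class I heavy chains are near-identical in sequence, and probe sets of 1 may read transcripts of another. In every one of these genes but Psmb10 the control clone of pair 2 was the lowest of the 4. The 3 higher members included Pdia3, a disulfide isomerase of the peptide-loading complex that also stands in the ER list, at 7995.3 and 9201.4 against 16523.3 and 13364.0. H2-T3, a class I heavy chain gene outside this list, was named above among the genes higher in pair 2.

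Interferon genes were mixed. Of 18 tested members of the interferon list, 3 were higher in pair 2 in both statuses and 5 lower (medians -0.29 and 0.01). Beside Mx1, Irf7, a transcription factor induced by interferon, was higher, with 233.0 and 273.9 against 582.1 and 446.8 (log2 0.97 ± 0.27, limma adjusted p = 0.188). Stat2 and Irf9, which act downstream of the interferon receptors, differed by -1.05 and -0.62 between control clones and by -0.76 and -0.38 between AID-silenced clones.

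In the JAK-STAT list of cytokine signalling genes 8 of 14 tested members were lower in both statuses and 3 higher (medians -0.28 and -0.62). Ptpn6, the phosphatase SHP-1 that dampens cytokine and B cell receptor signals, had 1311.3 and 909.5 in pair 1 and 308.6 and 283.7 in pair 2 (log2 -1.83 ± 0.23, limma adjusted p = 0.0923), although its second probe set differed by -0.36. Stat6, the transducer of interleukin 4, had 1518.7 and 1664.5 against 650.0 and 615.8 (log2 -1.31 ± 0.20, limma adjusted p = 0.112). Socs2, a feedback inhibitor, had 688.8 and 496.6 against 279.9 and 135.4 (log2 -1.51 ± 0.26, limma adjusted p = 0.123). Each of the 3 was at least 2-fold lower in both statuses. Il6st, the gp130 chain shared by receptors of the interleukin 6 family on which plasmacytomas often depend, had 829.6 and 1153.0 against 337.7 and 483.7 (log2 -1.24 ± 0.22, limma adjusted p = 0.125), at 4 of 4 probe sets. It belongs to a separate list of plasma cell survival receptors, with 5 of 13 tested members lower in both statuses and 2 higher. That 38.5% lower is the share seen over all tested genes. Of the higher ones, Il5ra differed by 1.04 and 2.31, and its signal in the AID-silenced clone of pair 1 was below the bacterial controls.

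Of 20 tested NF-kB genes, 12 were lower in both statuses and 0 higher, with medians of -0.10 between control clones and -0.24 between AID-silenced clones. The median fitted difference of the list was -0.08, close to the -0.07 of all tested genes. Under quantile or cyclic loess normalisation 10 of 20 were lower and 2 higher, and under median centring 10 and 1. Nfkb2, the p100 precursor of the alternative pathway, had 411.5 and 367.0 against 71.6 and 196.1 (log2 -1.57 ± 0.39, limma adjusted p = 0.174). Relb, its partner, had 154.7 and 326.6 against 87.5 and 106.5. B cell receptor signalling gave 9 of 16 lower and 3 higher, and the adaptor Blnk was among the higher at 5323.6 and 5834.2 against 11125.0 and 9553.6 (log2 0.89 ± 0.15, limma adjusted p = 0.123). Cd274, the checkpoint ligand PD-L1, had 1770.5 and 1802.0 against 870.9 and 580.6 (log2 -1.31 ± 0.23, limma adjusted p = 0.123). It belongs to a checkpoint list with 8 of 14 lower and 1 higher.

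Lipid genes differed by list. Fatty acid metabolism had 9 of 19 tested members higher in both statuses and 6 lower (medians -0.13 and 0.07), while sterol synthesis had 13 of 19 higher and 1 lower (medians 0.35 and 0.42). Insig1, the ER anchor that restrains SREBP, had 477.2 and 541.0 in pair 1 and 1774.3 and 954.4 in pair 2 (log2 1.33 ± 0.29, limma adjusted p = 0.154). Hmgcs1, an early enzyme of the pathway, was higher at 4 of 4 probe sets, with 2457.7 and 2963.2 against 3908.4 and 4370.3 (log2 0.61 ± 0.16, limma adjusted p = 0.181). The cholesterol exporters Abca1 and Abcg1 were at least 2-fold lower in both statuses. They were picked by size from the ion and solute transport list, in which 7 of 17 tested members were higher in both statuses and 8 lower. Abca1 had 590.8 and 588.4 against 124.7 and 171.6 (log2 -1.90 ± 0.26, limma adjusted p = 0.103), and Abcg1 1616.3 and 1165.6 against 414.8 and 422.2 (log2 -1.68 ± 0.23, limma adjusted p = 0.103). Neither exporter overlapped between the pairs, and all of their tested probe sets were lower.

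In the oxidative stress list 15 of 24 were higher in both statuses and 4 lower (medians 0.42 and 0.27). The metallothioneins Mt1 and Mt2, which bind zinc and copper, led it. Mt1 had 10539.0 and 7970.4 against 24346.9 and 14698.1 (log2 1.04 ± 0.14, limma adjusted p = 0.0924) and Mt2 2709.6 and 2910.9 against 10342.2 and 5765.3 (log2 1.45 ± 0.24, limma adjusted p = 0.130). Both subunits of the enzyme that starts glutathione synthesis were higher, Gclm by 1.15 and 0.73 and Gclc by 1.04 and 0.48. For Gclc the AID-silenced clone of pair 2, at 1012.4, lay below the control clone of pair 1, at 1183.5. Cytosolic chaperones gave 12 of 16 higher and 2 lower, with Hsph1, a nucleotide exchange factor of Hsp70, at 3095.3 and 2374.1 against 5917.9 and 5223.8 (log2 1.03 ± 0.16, limma adjusted p = 0.112). Under quantile normalisation 9 of the 16 were higher and 3 lower, and under cyclic loess 8 and 3, with list medians of 0.17 in each against 0.37 as deposited.

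Cell division genes were mostly higher, by small amounts. Mitosis genes gave 17 of 23 higher and 1 lower (medians 0.28 and 0.21), and DNA replication 15 of 27 higher and 2 lower (0.07 and 0.28). For DNA replication the list median of 0.15 became 0.07 under quantile normalisation, with 14 higher and 5 lower. Kif20a, a kinesin of cytokinesis, had 1065.0 and 1188.7 in pair 1 and 1699.8 and 2242.8 in pair 2 (log2 0.79 ± 0.19, limma adjusted p = 0.162). Fen1, which trims Okazaki fragments, had 3750.5 and 2708.5 against 6381.9 and 7508.5 (log2 1.11 ± 0.20, limma adjusted p = 0.130). Some inhibitors of the G1 phase stood lower in pair 2. Rb1, the retinoblastoma protein, had 1836.6 and 1852.5 against 679.7 and 592.6 (log2 -1.52 ± 0.20, limma adjusted p = 0.0924), and Cdkn1b, which encodes p27, 1719.2 and 1718.2 against 881.9 and 860.5 (log2 -0.97 ± 0.19, limma adjusted p = 0.142). In Rb1 and Cdkn1b the clones of a pair were close and the pairs were apart. The cell cycle control list as a whole was mixed, with 6 of 22 higher and 9 lower.

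Ribosomal protein and respiratory chain lists took their direction from the scaling. As deposited, 22 of 25 cytosolic ribosomal proteins were higher in both statuses and 0 lower, with a list median of 0.17. This became 7 higher and 9 lower under quantile normalisation and 3 higher and 16 lower under cyclic loess, where the median was -0.08. The respiratory chain went from 20 of 32 higher and 4 lower to 11 and 9 under quantile normalisation. Over all 50 lists, the median changed sign with the scaling in 8. The medians kept their sign under all 4 scalings for the proteasome (0.20 to 0.39), the Myc network (0.26 to 0.39), ER folding (0.22 to 0.38), sterol synthesis (0.41 to 0.45), ATF4 (-0.32 to -0.17) and MHC class I (-0.69 to -0.56). Averaging the probe sets of each gene, in place of reading the brightest, lowered the sterol median to 0.26. The other lists named here stayed within their ranges.

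**Figure D4:**
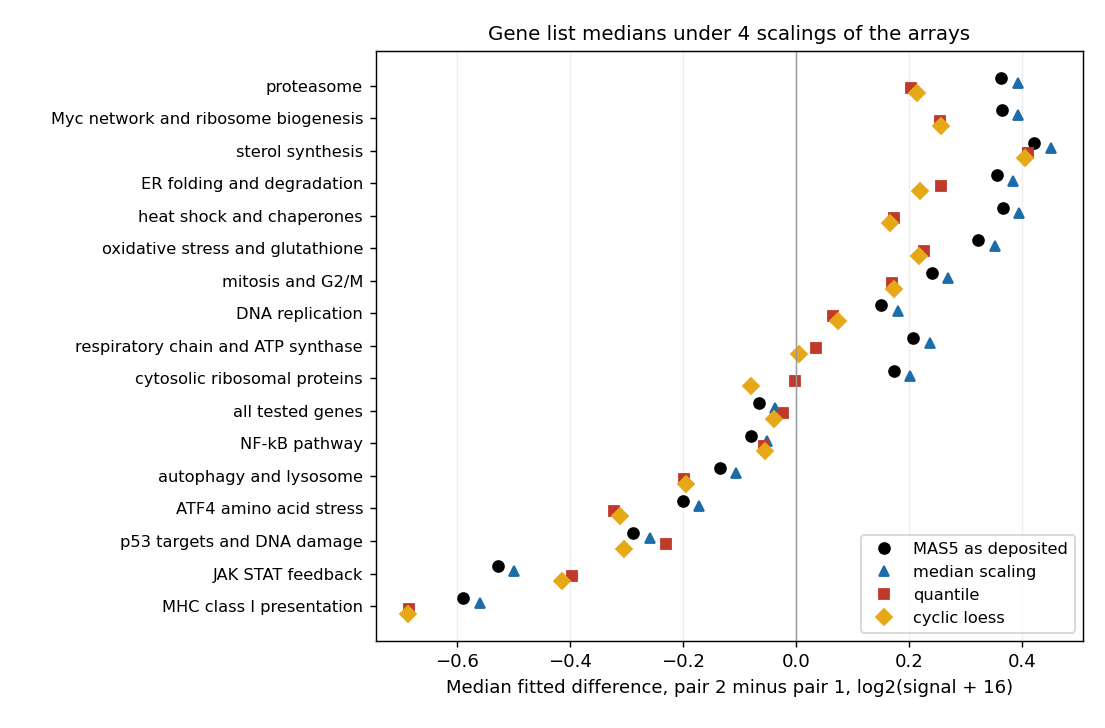
Median fitted difference, pair 2 minus pair 1 in log2(signal + 16), over the tested members of 16 gene lists and over all tested genes, with the signals as deposited and after 3 other scalings of the arrays. The ribosomal protein median moved from 0.17 as deposited to -0.08 under cyclic loess, whereas MHC class I stayed between -0.69 and -0.56.

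Over the 50 lists, 20 had medians above 0 in both statuses, 16 below 0 in both and 14 of opposite sign. More than 50% of the tested members were higher in both statuses in 14 lists and lower in both in 7. Autophagy and lysosome genes had 10 of 23 lower (43.5%, near the 38.5% of all tested genes) and 1 higher (4.3%, beside 26.4%). Among the lower ones was Map1lc3a, a marker of autophagosomes, at 3540.4 and 3031.0 against 1506.5 and 1665.3 (log2 -1.04 ± 0.19, limma adjusted p = 0.129). In the p53 list 9 of 18 were lower (50%) and 2 higher, and in the integrin list 8 of 17 (47.1%) and 3. Itga4, the integrin alpha 4 chain that holds plasma cells to marrow stroma, had 1744.1 and 1141.9 against 433.6 and 575.3 (log2 -1.47 ± 0.28, limma adjusted p = 0.142). Among MAPK targets, Etv4 and Ier5 were at least 2-fold lower in both statuses, with differences of -1.79 and -1.88 between control clones and -1.44 and -1.14 between AID-silenced clones. Plasma cell identity genes gave 8 of 20 higher and 3 lower, with Igha at 37163.6 and 41050.2 against 51693.4 and 44407.7. Under quantile normalisation 6 of the 20 were higher and 3 lower, and under cyclic loess 5 and 3. The list medians were then 0.09 and 0.08, against 0.28 as deposited.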

How the data were processed

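RNA of 4 J558 clones, 1 Affymetrix Mouse 430 2.0 array each, was compared between pair 2 and pair 1. The authors deposited 1 linear intensity per probe set and array. MAS5 made it, per the submitters' processing notes, and each array's 2% trimmed mean was checked and lay at 500. Of 45101 probe sets, 64 controls were left out. The upper 0.5 of the rest by mean log2(signal + 16), a mean signal of about 49.4, was tested. By the platform annotation 34945 probe sets had 1 symbol, 932 several (named for none) and 9160 none. Each gene was read from the brightest of its probe sets.

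The main test was limma 3.58.1 (statmod 1.5.0, R 4.3.3) with lmFit and eBayes, a trended and robust prior and silencing status as a block, which left 1 residual degree of freedom. The threshold was a Benjamini-Hochberg adjusted p of 0.05. This fit was tested on simulated data, where it missed most differences of 2-fold, recovered most larger ones, and made false calls at more than the share the threshold names. Clones of a pair were treated as sharing only their label.

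Genes named were those called, then those at least 2-fold apart in both statuses, ranked by the smaller difference, up to 15 in each direction. Up to 4 members of each list and the 4 genes with the largest opposite differences were also eligible. Members named for a motif match, or beside a named partner (Atf4, Asns, Myc, Xbp1, Gclc, Igha, Ireb2 and the like), were chosen after their values were seen. The comparison, the 50 gene lists and these rules were chosen with earlier results of these data known. Of 1124 listed genes, 1015 were measured and 754 tested. Promoter windows came from RefSeq (GRCm38.p6). Alternatives were quantile normalisation, median centring, cyclic loess (added after seeing the data), pseudocounts of 1 and 64, other filters and limits, no block, a plain prior and each clone left out together with the block. The number of arrays limits the precision. The level of the silenced gene is not reported here. Figures were drawn with matplotlib 3.10.9.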

Additional observations from a re-analysis of the deposited data

Results flagged for a closer look

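Some genes differed between the pairs in opposite directions in the 2 silencing statuses. With 1 clone for each status in each pair, the opposition was not tested. Tesc, a calcium-binding protein, differed by 2.31 in the control clones and by -2.24 in the AID-silenced ones. Its signals were 28.8 and 1310.3 in pair 1 (control first) and 206.2 and 264.2 in pair 2, and the signal of 28.8 was below the bacterial controls of its array. Reln, the secreted glycoprotein reelin, differed by -2.66 and 2.23, at 408.9 and 49.6 against 51.4 and 292.8. Zfp629, a zinc finger protein, differed by -2.05 and 1.95, and Ccnjl, a cyclin J-like protein, by -2.06 and 1.82.

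The genes of 2 chromosomes were shifted in a single status. On chromosome 9 the median difference over 578 tested genes was 0.25 in the control clones and -0.10 in the AID-silenced clones, and 402 genes were higher in pair 2 in the former against 235 in the latter. On chromosome 18 it was -0.0398 and 0.203 over 261 genes, with 124 and 168 higher. The medians of the other chromosomes lay between -0.14 and -0.03 in both statuses. These opposite signs were not tested either.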

How the results depend on the processing

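The 4 calls were kept under quantile normalisation (7 called), median centring (4), cyclic loess (6, added after seeing the data), pseudocounts of 1 (4) and 64 (6), no low-signal filter (11) and a stricter filter (4). With no replicate block limma called 0 probe sets (3038 at an unadjusted p under 0.05), and with the plain prior 0 (2888). Leaving out 1 clone, and with it the block, gave from 0 to 59 calls: 0 to 12 higher and 0 to 47 lower. The 59 came without the AID-silenced clone of pair 2 and shared 1 probe set with the 4. At an adjusted p under 0.10 there were 40 calls, 7 higher and 33 lower. Lower calls numbered 4 under quantile normalisation, 3 under cyclic loess or a pseudocount of 64, and 8 without the filter. Probe sets at least 2-fold higher, lower and opposite in both statuses numbered 23, 160 and 31 with a pseudocount of 64, 260, 565 and 444 without the filter, 24, 148 and 17 with the stricter filter, 520, 1274 and 402 at 1.5-fold, 3, 16 and 4 at 4-fold, and 28, 165 and 45 counted as genes; a pseudocount of 1 gave 113 higher. Apart from these scalings and limits the cause was not tested. Of the list medians, 320 moved by less than the spread and 78 by more, and the stricter filter left 2 lists without a member. Of the named genes' values, 386 kept direction and side of the threshold, 13 passed it, 5 lost it (all Tfrc) and 9 moved. Clones of different pairs share a status and no stated source, so the block describes the design and no other pairing was analysed. Dim signals limit genes near the bacterial controls.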

Other observations

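Some gene groups not described above follow, and none of the genes named here passed the test. RNA processing genes gave 11 of 19 tested members higher in pair 2 in both statuses and 6 lower. Drosha, the nuclease that cuts primary microRNAs, had signals of 1191.4 and 985.3 in pair 1 (control first) and 2364.8 and 1641.5 in pair 2 (log2 0.85 ± 0.19, limma adjusted p = 0.152), although 1 of its 3 probe sets held that direction in both statuses. Tarbp2, a partner of Dicer, had 815.8 and 851.4 against 1321.1 and 1556.7. The splicing factors Srsf1 and Srsf3 were higher in both statuses at 5 of 6 probe sets each.

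The cytoskeleton list gave 6 of 24 higher and 11 lower, near the shares of all tested genes (26.4% and 38.5%). Tubb2a, a beta tubulin, had 365.7 and 361.6 against 1045.9 and 777.2 (log2 1.27 ± 0.23, limma adjusted p = 0.130), and Pfn2, an actin-binding profilin, 1258.0 and 1312.2 against 641.5 and 670.3 (log2 -0.95 ± 0.20, limma adjusted p = 0.144). Of 5 tested MHC class II genes, 2 were lower in both statuses and 1 higher. H2-Ab1 had 452.4 and 45.7 against 29.0 and 4.3, the last below the bacterial controls. H2-DMa was lower by smaller amounts (-0.59 and -0.72), and Ifi30 was the higher one (0.71 and 0.27). Cd74, the invariant chain, had 4931.2 and 1573.1 against 137.7 and 2375.1, so that the 2 statuses differed in direction.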
